A study of Homo sapiens with 66 samples.

Results

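Transcript levels of 10 histone deacetylase genes, HDAC1, HDAC2, HDAC3, HDAC4, HDAC5, HDAC6, HDAC7, HDAC8, HDAC9 and HDAC11, were followed in 11 acute myeloid leukemia (AML) cell lines before and after etoposide. They were found by gene symbol, and each matched 1 of the 57992 gene identifiers analysed. Every line was measured untreated (media alone) and after 24 hours of etoposide at a concentration specific to that line, its IC50, with 3 biological replicates per group and 66 RNA-seq libraries in all. The lines were F36P, HL60, KASUMI1, MOLM13, MONOMAC6, MV411, NB4, NOMO1, OCIAML2, OCIAML3 and THP1. All are established leukemia lines grown in the medium suited to each, and for each library the cells of 3 wells were pooled before RNA extraction. Since the concentration was set separately for each line, a difference between lines in the response cannot be told apart from a difference in the dose. The etoposide-treated OCIAML2 libraries were discarded by the study after quality control of the reads, so they are given apart and enter none of the counts over 10 lines.

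Histone deacetylases remove acetyl groups from lysines of histone tails and of many other proteins, and thereby oppose the histone acetyltransferases. The class I enzymes HDAC1, HDAC2, HDAC3 and HDAC8 are mostly nuclear. HDAC1 and HDAC2 are the catalytic subunits of the SIN3, NuRD and CoREST corepressor complexes, and HDAC3 that of the NCOR1 complex. The class IIa enzymes HDAC4, HDAC5, HDAC7 and HDAC9 have little deacetylase activity of their own, bind MEF2 transcription factors, and are held in the cytoplasm by 14-3-3 proteins once they are phosphorylated. HDAC6, of class IIb, deacetylates tubulin in the cytoplasm. HDAC11 is the only class IV enzyme and removes long fatty acyl groups. Inhibitors of these enzymes such as vorinostat are used in blood cancers, and in AML with a RUNX1-RUNX1T1 fusion the fusion protein recruits deacetylases to its target genes. Etoposide traps topoisomerase II on DNA and leaves double strand breaks.

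Reads on genes numbered 17997404 to 24101670 per library, with a median of 20241014. At these depths a count of 0 in a single library sets an upper limit of 0.124 to 0.167 CPM, which covers counting error alone. CPM are the reads of a gene scaled by the total of its library, which for the expression levels was first adjusted by TMM, a factor for differences in RNA composition. Among the markers, SPI1 RNA, which encodes a myeloid transcription factor, lay between 115 and 204 CPM in every untreated line. The other myeloid markers were less even. CD33 lay between 69.9 and 149 CPM and PTPRC between 32.5 and 540.5 CPM. MPO ran from 1.02 CPM in F36P to 27110 in KASUMI1, and LYZ from 2.85 in HL60 to 5021 in OCIAML2. The B cell marker MS4A1 did not exceed 2.99 CPM. The T cell marker CD3D reached 174 CPM in NOMO1, where the other T cell marker, CD3E, was at 3.69 CPM. The epithelial marker EPCAM reached 81.8 CPM in KASUMI1. HBG2, which encodes a fetal globin of erythroid cells, was at 5713 CPM in untreated F36P and at most 0.11 CPM in the other untreated lines, so F36P stood apart as an erythroid line. RUNX1T1, the fusion partner gene, was at 249 CPM in KASUMI1 and at most 0.08 CPM in the other lines. As a check of the treatment, CDKN1A, a p53 target that encodes the cell cycle inhibitor p21, rose over 2-fold in 10 of 10 lines after etoposide, by log2 fold changes of 1.86 in MV411 to 5.46 in OCIAML3.

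The bases upstream of 4 of the genes are shown because they set HDAC1 beside its close relative HDAC2, and HDAC4 beside HDAC9, genes whose changes after etoposide are given side by side here. The windows hold the 250 bases before a RefSeq transcription start (GRCh38.p14), read 5′ to 3′ on the strand of the gene. Capitals mark a GC box where the letters are GGGCGG on either strand, the CCAAT box on either strand, and the E box with the letters CACGTG. The windows lie at chr1:32291833-32292082 (plus strand) for HDAC1, chr6:113971149-113971398 (minus strand) for HDAC2, chr2:239401650-239401899 (minus strand) for HDAC4 and chr7:18086575-18086824 (plus strand) for HDAC9.
HDAC1 promoter: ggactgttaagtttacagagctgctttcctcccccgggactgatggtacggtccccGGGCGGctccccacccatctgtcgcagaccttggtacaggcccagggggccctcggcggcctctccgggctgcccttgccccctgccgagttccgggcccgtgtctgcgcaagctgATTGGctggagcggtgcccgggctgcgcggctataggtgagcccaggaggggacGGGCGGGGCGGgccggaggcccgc
HDAC2 promoter: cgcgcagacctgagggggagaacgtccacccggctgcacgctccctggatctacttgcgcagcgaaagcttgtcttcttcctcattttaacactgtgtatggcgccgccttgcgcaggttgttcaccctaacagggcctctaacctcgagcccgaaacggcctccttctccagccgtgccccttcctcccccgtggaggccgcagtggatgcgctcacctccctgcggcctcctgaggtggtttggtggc
HDAC4 promoter: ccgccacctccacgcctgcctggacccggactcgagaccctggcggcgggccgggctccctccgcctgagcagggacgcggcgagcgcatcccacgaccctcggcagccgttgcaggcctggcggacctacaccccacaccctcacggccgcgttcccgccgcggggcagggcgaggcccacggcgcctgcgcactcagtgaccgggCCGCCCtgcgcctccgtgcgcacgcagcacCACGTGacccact
HDAC9 promoter: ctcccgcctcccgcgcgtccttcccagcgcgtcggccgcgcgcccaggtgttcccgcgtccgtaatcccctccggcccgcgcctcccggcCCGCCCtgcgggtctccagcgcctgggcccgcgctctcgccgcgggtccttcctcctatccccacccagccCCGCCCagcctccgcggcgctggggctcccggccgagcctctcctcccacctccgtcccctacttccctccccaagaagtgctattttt
HDAC1 held 3 GC boxes, of which the last 2 overlap by 1 base, and 1 CCAAT box, and the HDAC2 window held none of the motifs searched. HDAC4 held 1 GC box and 1 E box, and HDAC9 held 2 GC boxes. Of 34788 RefSeq windows of this length, 42.6% held a GC box, 32.0% a CCAAT box and 6.31% an E box. The E2F core (TTCGCGC) and the TATA box (TATAAA), present in 1.84% and 10.8% of the windows, were not found in any window of the 9 genes with an entry. The window of HDAC11 held 5 GC boxes, more than any other of these windows, and those of HDAC7 and HDAC8 held none. HDAC4, HDAC6 and HDAC9 have further starts. The windows of HDAC1, HDAC2, HDAC4 and HDAC9 differed in base composition, with a G and C share of 71.6%, 63.2%, 76.8% and 75.2%, against a median of 58.0% over all windows. These letters are a description of the windows and were not tied to the changes.

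In untreated cells the class I genes varied by at most 2.002-fold between the means of the lines, while the class IIa genes HDAC7 and HDAC9 differed widely between them. HDAC1 ranged from 186 ± 19.6 CPM (mean ± SD, n = 3) in NB4 to 304 ± 10.5 in NOMO1, HDAC2 from 189 ± 3.74 in OCIAML3 to 372 ± 12.4 in THP1, and HDAC3 from 94.9 ± 6.76 in NOMO1 to 155 ± 2.64 in OCIAML2. HDAC8 ranged from 16.6 ± 0.668 CPM in MV411 to 33.2 ± 1.27 in NB4. The ratio of the highest to the lowest line thus lay between 1.63 and 2.002 for the 4 class I genes. It was 2.32 for HDAC6, 2.72 for HDAC4, 8.42 for HDAC5, 20.1 for HDAC7 and 404 for HDAC9.

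Levels of different genes were compared per kilobase of the canonical transcript. The medians over lines were 117 CPM per kilobase for HDAC1, 65.3 for HDAC3, 27.1 for HDAC2, 19.3 for HDAC6, 13.2 for HDAC8, 12.04 for HDAC7, 10.6 for HDAC5, 5.90 for HDAC4, 1.94 for HDAC9 and 0.476 for HDAC11. The places of some genes depended on the length used. Per kilobase of all annotated exons the median of HDAC8 was 1.01 CPM, against 1.11 for HDAC9. By that length HDAC5 (7.40) also stood above HDAC6 (5.50) and HDAC7 (5.11), the reverse of their order above.

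Each line was also set against the mean of the other 10 untreated lines with edgeR's quasi-likelihood test, and a difference was called at an adjusted p below 0.05 and over 2-fold. Of 110 contrasts of a member with a line, 19 were called, while 25.7% of all such contrasts over all genes were. None of the 44 class I contrasts was called, against 13 of 55 for class II and 6 of 11 for HDAC11. The mean of the other lines is a mean of log levels, so lines with almost no reads lower it. With HL60 left out of that mean, a step chosen after seeing the data, as were the next reference changes, 15 contrasts were called, again 0 in class I and 13 in class II, but 2 for HDAC11, where 25.8% of all contrasts over all genes were called. HDAC1, HDAC2, HDAC3, HDAC8, HDAC4 and HDAC6 had no call in any line. Each class I gene did pass the adjusted p in some lines at less than 2-fold, in both directions. Examples are HDAC2 in THP1 (log2 difference 0.57, edgeR adjusted p = 1.03e-09) and HDAC1 in NB4 (−0.455, adjusted p = 1.15e-09).

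HDAC9 gave 9 of the calls. Its 3 untreated libraries held 114, 122 and 107 CPM in THP1, and 67.4, 68.5 and 62.1 CPM in MONOMAC6. At the other end they held 0.292, 0.241 and 0.317 CPM in HL60 and 0.223, 0.217 and 0.609 CPM in F36P, where all 3 libraries together counted 17 and 20 reads. In descending order the mean levels were THP1 (115 CPM), MONOMAC6 (65.98), OCIAML2 (44.8), MOLM13 (37.0), NOMO1 (26.3), OCIAML3 (19.2), KASUMI1 (7.73), MV411 (6.08), NB4 (1.63), F36P (0.350) and HL60 (0.283). The first 6 were called higher than the mean of the other lines, by log2 differences of 1.13 to 3.96, and the last 3 lower, by −2.77 to −5.53. This mean is lowered by HL60 and F36P with their 17 and 20 reads, and OCIAML3 is in fact the middle line of the 11. With both left out of the mean, THP1, MONOMAC6, OCIAML2 and MOLM13 were called higher, by 1.01 to 2.84, while NOMO1 (0.45) and OCIAML3 (−0.06) were not, and KASUMI1 (−1.53) and MV411 (−1.93) were called lower, as 25.7% of all contrasts over all genes were called in either direction. Neighbours in this order differed by edgeR's test in every case but F36P against HL60, the pair with the fewest reads.

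HDAC7, known for roles in endothelial cells and developing lymphocytes, was highest in F36P, with 457, 418 and 370 CPM, and next in NB4, with 169, 205 and 233 CPM. The libraries of these lines overlapped with none of the others, whose means lay between 20.7 ± 1.28 CPM in THP1 and 81.3 ± 4.61 in NOMO1. Against the other lines the log2 differences were 2.88 in F36P (edgeR adjusted p = 3.39e-30), 1.74 in NB4 (adjusted p = 5.86e-22) and −1.88 in THP1 (adjusted p = 1.55e-18). HDAC5 was lowest where HDAC7 was highest. Its F36P libraries held 10.6, 9.22 and 8.47 CPM, a log2 difference of −2.56 from the other lines (edgeR adjusted p = 1.64e-22). KASUMI1 came next with 24.0, 28.4 and 29.6 CPM, a difference of −0.87 that stayed under 2-fold (−1.17, and called, with HL60 and F36P left out of the mean), and the other 9 lines had means of 48.8 to 79.4 CPM.

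HDAC4 ran from 27.7 ± 5.10 CPM in F36P to 75.4 ± 4.45 in MONOMAC6, and HDAC6 from 48.7 ± 2.29 in OCIAML2 to 113 ± 13.6 in F36P. HDAC11 was scarce in every line. Its highest mean was 3.56 ± 0.246 CPM in OCIAML3, followed by F36P (2.44), THP1 (2.05), OCIAML2 (1.80) and KASUMI1 (1.80). These 5 lines were called higher against a mean that included HL60, where the gene had no reads. With HL60 left out of it, OCIAML3 alone was called higher (1.33), and the log2 differences were 0.72 in F36P, 0.45 in THP1, 0.23 in OCIAML2 and 0.22 in KASUMI1. In HL60 none of the 3 untreated libraries held a read of HDAC11, which was the lower call, and no fold is given against it. Along the 10 orders of 11 lines, 27 of the 100 neighbouring pairs differed by edgeR's test at an adjusted p below 0.05, while 66.8% of all pairs of lines did over all genes. Neighbours are by construction the nearest pairs, so these shares do not compare like with like. For HDAC8 no neighbours differed.

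**Figure D1:**
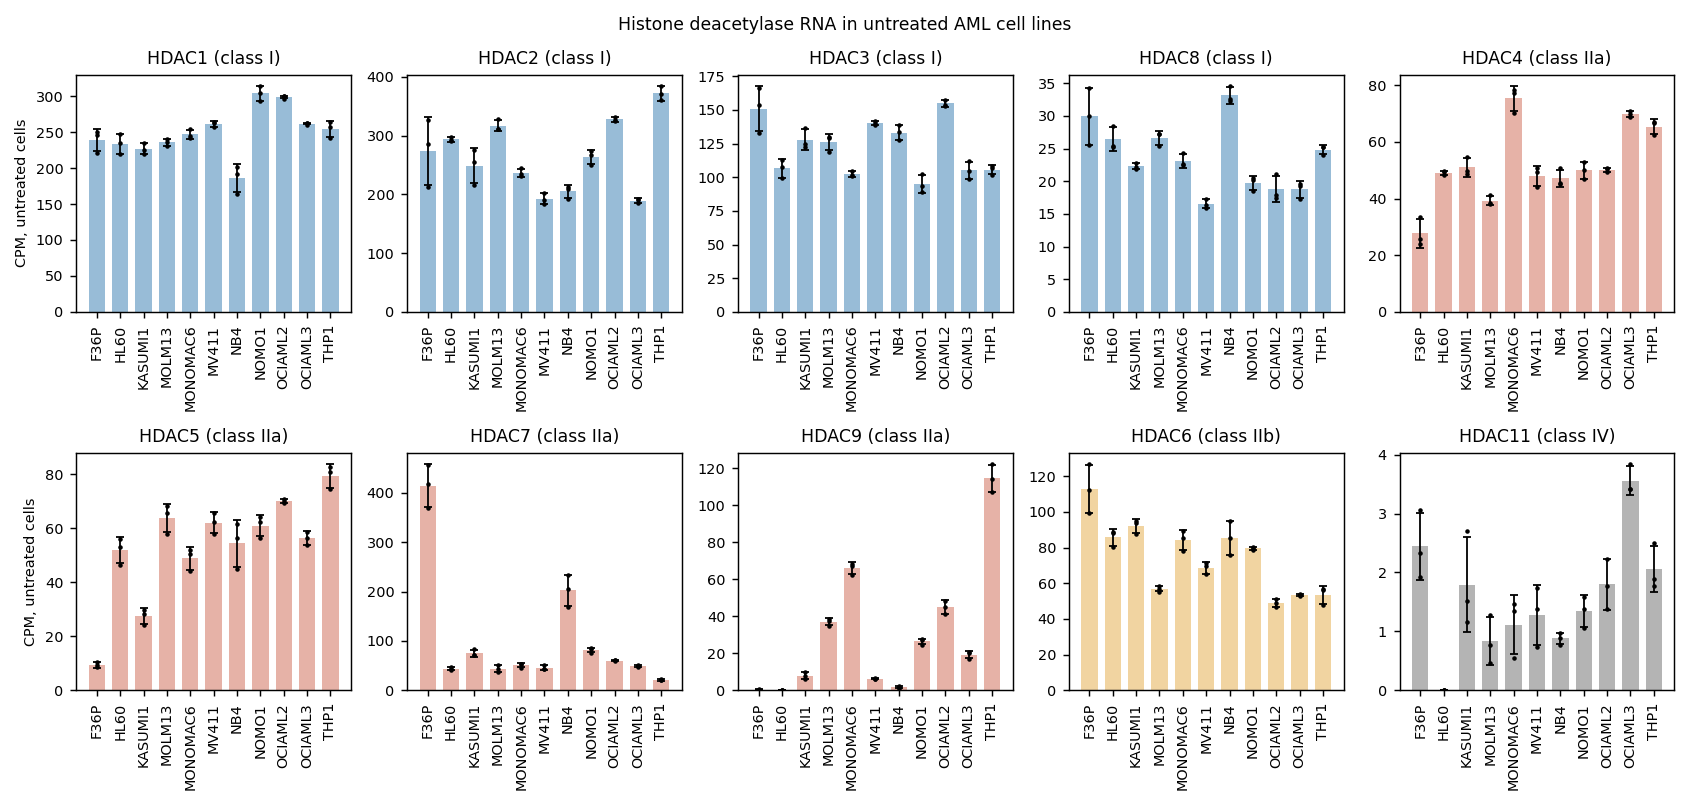
Levels in untreated cells, in CPM on the y axis (starting at 0), for the 11 lines on the x axis. Bars are means of 3 libraries, error bars the SD and dots the libraries. The class I panels span at most 2.002-fold between the means of the lines. HDAC7 stands out in F36P and NB4, HDAC9 in THP1, and HDAC5 is lowest in F36P at 9.43 CPM.

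After etoposide no class I gene was called over 2-fold in any line with all libraries in the fit. HDAC5 rose in F36P and KASUMI1, HDAC9 in F36P, and HDAC11 in KASUMI1, MOLM13, MONOMAC6, MV411 and NB4, whereas HDAC4 and HDAC7 fell in F36P. Over 10 lines, 98 member-line pairs passed the filter on low counts in edgeR, all but HDAC9 and HDAC11 in HL60. Of these, 8 were called induced and 2 repressed at an adjusted p below 0.05 with a fold change above 2, against 11.1% and 3.96% of all gene-line pairs, so neither count stood above the background. At an adjusted p below 0.05 alone, 25 pairs rose and 28 fell, against a background of 27.7% and 24.4%. Of the 10 calls, 4 came from F36P, the line in which 30.9% of all genes were called. With F36P set aside, a step chosen after seeing the data, 6 pairs were induced and 0 repressed by edgeR at this threshold, while 22 rose and 23 fell by the adjusted p alone. Over all gene-line pairs of these 9 lines the shares were 9.41% and 3.62%, and 26.8% and 24.3%.

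HDAC2 showed the most uniform change of the class I genes. Its log2 fold change was negative in 10 of 10 lines and past the adjusted p in 7. In MV411 the untreated libraries held 215, 205 and 197 CPM and the treated 133, 127 and 117 CPM. In MOLM13 they held 316, 299 and 299 CPM before and 184, 152 and 169 CPM after. The groups did not overlap in either line, and the log2 fold changes were −0.71 ± 0.0597 (SE; edgeR adjusted p = 1.12e-09) and −0.85 ± 0.0785 (adjusted p = 1.29e-05). In F36P the untreated libraries were spread over 215, 305 and 358 CPM, all above the treated ones at 183, 166 and 153 CPM, and the log2 fold change was −0.81 ± 0.173. Without the first of these untreated libraries it was −1.03, past 2-fold. The remaining falls past the adjusted p were in MONOMAC6 (−0.45), THP1 (−0.38), NB4 (−0.33) and OCIAML3 (−0.29). The THP1 fall no longer passed without any 1 of its untreated libraries (edgeR adjusted p = 0.0833 to 0.133) or with library size alone (0.058), the NB4 fall with library size alone (−0.12, adjusted p = 0.214), and the OCIAML3 fall without its first untreated library (adjusted p = 0.0798). HL60 (−0.15), KASUMI1 (−0.21) and NOMO1 (−0.17) did not pass.

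HDAC1, the paralog of HDAC2 in the same complexes, showed no fall past the test in any line. It rose in 3 lines, by log2 fold changes of 0.24 ± 0.0421 in MONOMAC6, 0.39 ± 0.0501 in MV411 and 0.59 ± 0.0879 in NB4 (edgeR adjusted p = 0.000348, 7.16e-07 and 3.67e-05). In NB4 the untreated libraries held 212, 201.2 and 174 CPM and the treated 299, 293 and 291 CPM. In MV411 they held 273, 283 and 283 CPM before and 360, 359 and 378 CPM after. The groups were separate in both lines, and these same lines showed a lower HDAC2 after treatment. In the other 7 lines HDAC1 moved by −0.06 to 0.18 and did not pass.

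HDAC3 fell in F36P, by −0.45 ± 0.107 (edgeR adjusted p = 0.00443), and in KASUMI1, by −0.23 ± 0.0849 (adjusted p = 0.0387). The KASUMI1 value no longer passed in 5 of the 6 fits that left out a library (edgeR adjusted p = 0.0607 to 0.119), with a minimum mean of 5 CPM (−0.14) or with library size alone (−0.058), and the F36P value did not pass with library size alone (−0.20, adjusted p = 0.171). HDAC3 did not pass in the other 8 lines, where its log2 fold changes lay between −0.19 and 0.29. HDAC8, a class I enzyme that acts outside the large complexes and deacetylates cohesin, fell in F36P from 25.9, 32.1 and 37.7 CPM to 18.4, 17.3 and 15.7 CPM. That was a log2 fold change of −0.90 ± 0.158 (edgeR adjusted p = 0.000702). Without the first untreated library it was −1.07, and with no filter on low counts it also lay just past 2-fold. HDAC8 also fell in MONOMAC6, by −0.26, which did not pass with library size alone (−0.14, adjusted p = 0.0928), and did not pass in the other 8 lines.

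Among the class IIa genes HDAC5 carried the largest change of all members. In F36P the untreated libraries held 10.7, 9.86 and 9.30 CPM and the treated 57.0, 68.3 and 57.5 CPM. In KASUMI1 they held 24.1, 28.5 and 29.3 CPM before and 86.0, 109 and 95.4 CPM after. The groups were far apart in both lines, with log2 fold changes of 2.61 ± 0.138 (edgeR adjusted p = 1.21e-06) and 1.83 ± 0.117 (adjusted p = 1.69e-06). NOMO1 followed with a rise from 63.2, 69.5 and 71.8 CPM to 106, 119 and 100.1 CPM, a log2 fold change of 0.67. HDAC5 also rose in MV411 (0.57), MOLM13 (0.50), NB4 (0.45) and MONOMAC6 (0.39), and stood at 0.23 in THP1, 0.15 in HL60 and 0.08 in OCIAML3 without passing. The libraries overlapped in NB4, where they held 47.1, 64.7 and 59.9 CPM before and 63.6, 82.1 and 88.0 CPM after.

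On 1 scale over the 60 libraries, the spread of HDAC5 between lines was narrower after treatment. Its untreated means ran from 9.77 ± 1.16 CPM in F36P to 82.1 ± 4.39 in THP1, a ratio of 8.41, and its treated means from 60.1 ± 4.22 in HL60 to 104 ± 12.2 in KASUMI1, a ratio of 1.73. The lines with the lowest untreated level, F36P and KASUMI1, were the ones with the largest rise. The untreated libraries enter both the level and the fold change, so a low level and a large rise are partly coupled. These lines also had the highest IC50 values in the study, and dose cannot be told apart from line. HDAC7 showed a ratio of 20.1 before and 9.97 after, and HDAC4 of 2.704 before and 4.95 after.

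In F36P the erythroid markers moved at the same time. All 4 (HBG1, HBG2, GATA1 and KLF1) were lower on average after etoposide, and their summed level went from 4986 to 6917 CPM in the untreated libraries to 3654 to 4124 CPM in the treated. The monocytic markers CD14 and ITGAM were both higher on average after etoposide in 9 of 10 lines, and in HL60 1 was higher and 1 lower. CD14 was scarce in several lines, moving only from 0.530 to 0.632 CPM in F36P and from 0.229 to 0.242 CPM in MOLM13. In F36P and KASUMI1 nearly all of the treated level came from ITGAM, at 36.8 and 18.15 CPM against 0.632 and 0.537 for CD14. The sums of both markers were 13.1 to 15.8 CPM before and 35.2 to 38.8 CPM after in F36P, and 0.457 to 0.578 and 17.5 to 19.4 CPM in KASUMI1. In lines where HDAC5 was not called they went from 29.0 to 35.3 CPM to 194 to 221 CPM in MONOMAC6, from 3.54 to 4.88 CPM to 30.8 to 34.4 CPM in MV411, from 7.87 to 12.1 CPM to 47.6 to 74.7 CPM in OCIAML3 and from 49.6 to 53.8 CPM to 170 to 181 CPM in THP1. Markers of other cell types rose as well. The fibroblast marker COL1A1, which was scarce, was higher on average in every one of these lines, as from 1.48 to 9.68 CPM in MONOMAC6. The summed T cell markers of F36P went from 1.69 to 2.32 CPM to 7.60 to 8.47 CPM, while in KASUMI1 1 of the 2 was lower. The part of any of these markers in the changes of the deacetylase genes was not tested. In these bulk samples, fewer cells of a type and less RNA per cell cannot be told apart.

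HDAC4 fell in 7 of 10 lines. In F36P, the called line, the untreated libraries held 33.9, 27.4 and 26.2 CPM and the treated 14.1, 13.1 and 15.8 CPM. In NOMO1 they held 52.5, 58.9 and 56.1 CPM before and 31.0, 23.6 and 29.5 CPM after. The groups were separate in both, and the log2 fold changes were −1.02 ± 0.147 (edgeR adjusted p = 0.000192) and −0.996 ± 0.111 (adjusted p = 1.73e-05), the latter just short of 2-fold. The F36P value lay as close to the threshold, and it was −0.95 without the first untreated library, −0.97 without the second treated one and −0.78 when scaled by library size alone. HDAC4 also fell in KASUMI1 (−0.89), MONOMAC6 (−0.81), NB4 (−0.77), HL60 (−0.54) and THP1 (−0.37). The THP1 fall no longer passed with library size alone (edgeR adjusted p = 0.0742) or in 5 of the 6 fits that left out a library (0.072 to 0.172). HDAC4 rose in MOLM13, from 39.7, 36.7 and 36.9 CPM to 43.4, 48.2 and 47.7 CPM, a log2 fold change of 0.30 ± 0.0766 (edgeR adjusted p = 0.00749). In MV411 (0.0006) and OCIAML3 (0.02) it did not pass.

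HDAC7 fell most where it was most abundant, although the untreated libraries enter both the level and the fold change. The F36P libraries went from 462, 447 and 406 CPM to 175, 215 and 219 CPM, and the NB4 libraries from 177, 215 and 246 CPM to 111, 143 and 139 CPM. The groups were separate in each, with log2 fold changes of −1.11 ± 0.120 (edgeR adjusted p = 3.47e-05) and −0.70 ± 0.120 (adjusted p = 0.000141). Scaled by library size alone, the F36P value was −0.87, below 2-fold. A fall of −0.54 passed in NOMO1, the line next in the order of untreated levels, and rises passed in OCIAML3 (0.34) and MONOMAC6 (0.20). The OCIAML3 rise was lost without the first or second untreated library (edgeR adjusted p = 0.088 and 0.069), and the MONOMAC6 rise in 4 of the 6 fits that left out a library (0.0711 to 0.16) and in the fit of 60 libraries (0.226).

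HDAC9 went in both directions. It rose in F36P from 0.226, 0.232 and 0.668 CPM to 1.65, 0.908 and 0.821 CPM, a call that rested on 20 untreated and 70 treated reads. The log2 fold change was 1.57 ± 0.461 (edgeR adjusted p = 0.0138), and it no longer passed without the second untreated library (adjusted p = 0.0574) or the first treated one (adjusted p = 0.0617). In OCIAML3 it rose from 20.2, 16.9 and 21.04 CPM to 29.9, 32.9 and 31.2 CPM, by 0.69 ± 0.1000, and in MOLM13 by 0.36. It fell in NB4 (−0.88), NOMO1 (−0.58), KASUMI1 (−0.52) and MONOMAC6 (−0.45). The KASUMI1 fall no longer passed with library size alone, with a minimum mean of 5 CPM or in 4 of the 6 fits that left out a library (edgeR adjusted p = 0.0704 to 0.135). The NB4 value rested on 96 and 62 reads with overlapping libraries. It ran from −0.54 to −1.40 when 1 library was left out, and it did not pass in 3 of those 6 fits, with library size alone, or by DESeq2 (adjusted p = 0.0724). In contrast, the 3 NOMO1 libraries fell from 30.7, 30.01 and 27.6 CPM to 17.8, 21.7 and 19.7 CPM without overlap. In THP1, the line with the highest level, the libraries held 117, 126 and 110 CPM before and 97.2, 80.7 and 114 CPM after, an overlap, and the log2 fold change of −0.28 did not pass.

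HDAC6 changed little. It fell in HL60 by −0.53 ± 0.0903 (edgeR adjusted p = 0.000741), in THP1 by −0.46 and in NOMO1 by −0.26, and rose in MV411 by 0.18. The THP1 fall did not pass when untreated replicate 1, untreated replicate 3 or treated replicate 3 was left out (edgeR adjusted p = 0.0869 to 0.0949), nor the MV411 rise without the second library of either group (0.127 and 0.0816). In the other 6 lines its log2 fold changes lay between −0.14 and 0.17 and did not pass.

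HDAC11 rose over 2-fold in more lines than any other member. It was called in 5 lines and passed the adjusted p in 8 of the 9 tested, with a positive log2 fold change in all 9. In MV411 the libraries went from 1.84, 1.48 and 0.782 CPM to 4.60, 3.51 and 5.39 CPM, in NB4 from 0.813, 0.928 and 1.03 to 2.61, 2.82 and 3.30 CPM, and in MOLM13 from 0.737, 0.445 and 1.22 to 2.10, 3.01 and 3.54 CPM. The groups were separate in all 3 lines, although these levels rest on 49 to 76 untreated and 167 to 330 treated reads per group. The log2 fold changes were 1.72 ± 0.237 (edgeR adjusted p = 1.78e-06), 1.65 ± 0.231 (adjusted p = 2.03e-05) and 1.84 ± 0.326 (adjusted p = 0.000856). KASUMI1 (1.38 ± 0.252) and MONOMAC6 (1.12 ± 0.296) were the other called lines. The MONOMAC6 value was 0.79 without the first untreated library, below 2-fold. HDAC11 also rose in F36P (0.85), THP1 (0.85) and OCIAML3 (0.66), and NOMO1 (0.38) did not pass. In HL60 only 3 reads were counted over the 3 treated libraries and 0 over the untreated ones, so the gene was not detectable in this line at this depth.

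**Figure D2:**
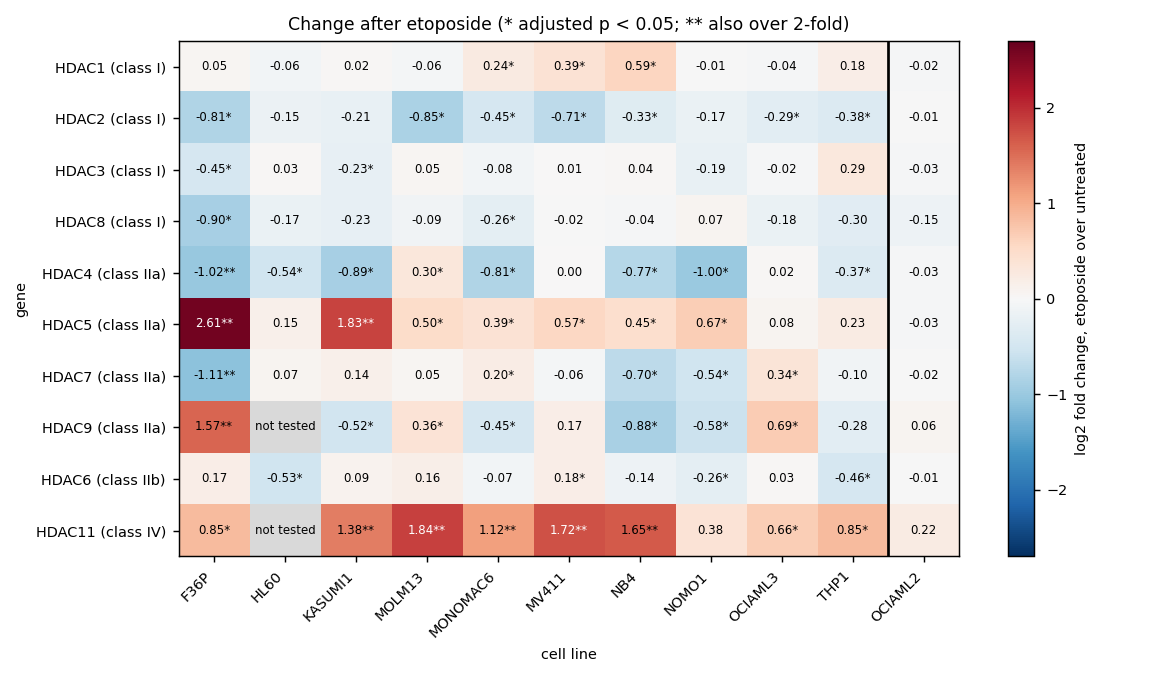
Log2 fold change of etoposide over untreated for each gene (rows) and line (columns), with red for higher and blue for lower and the value printed in each field. A single star marks an adjusted p below 0.05 in edgeR's quasi-likelihood test, a double star also a fold above 2, and OCIAML2 stands apart behind the line. The calls are in HDAC5, HDAC9, HDAC11, HDAC4 and HDAC7, with 4 of the 10 in F36P.

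**Figure D3:**
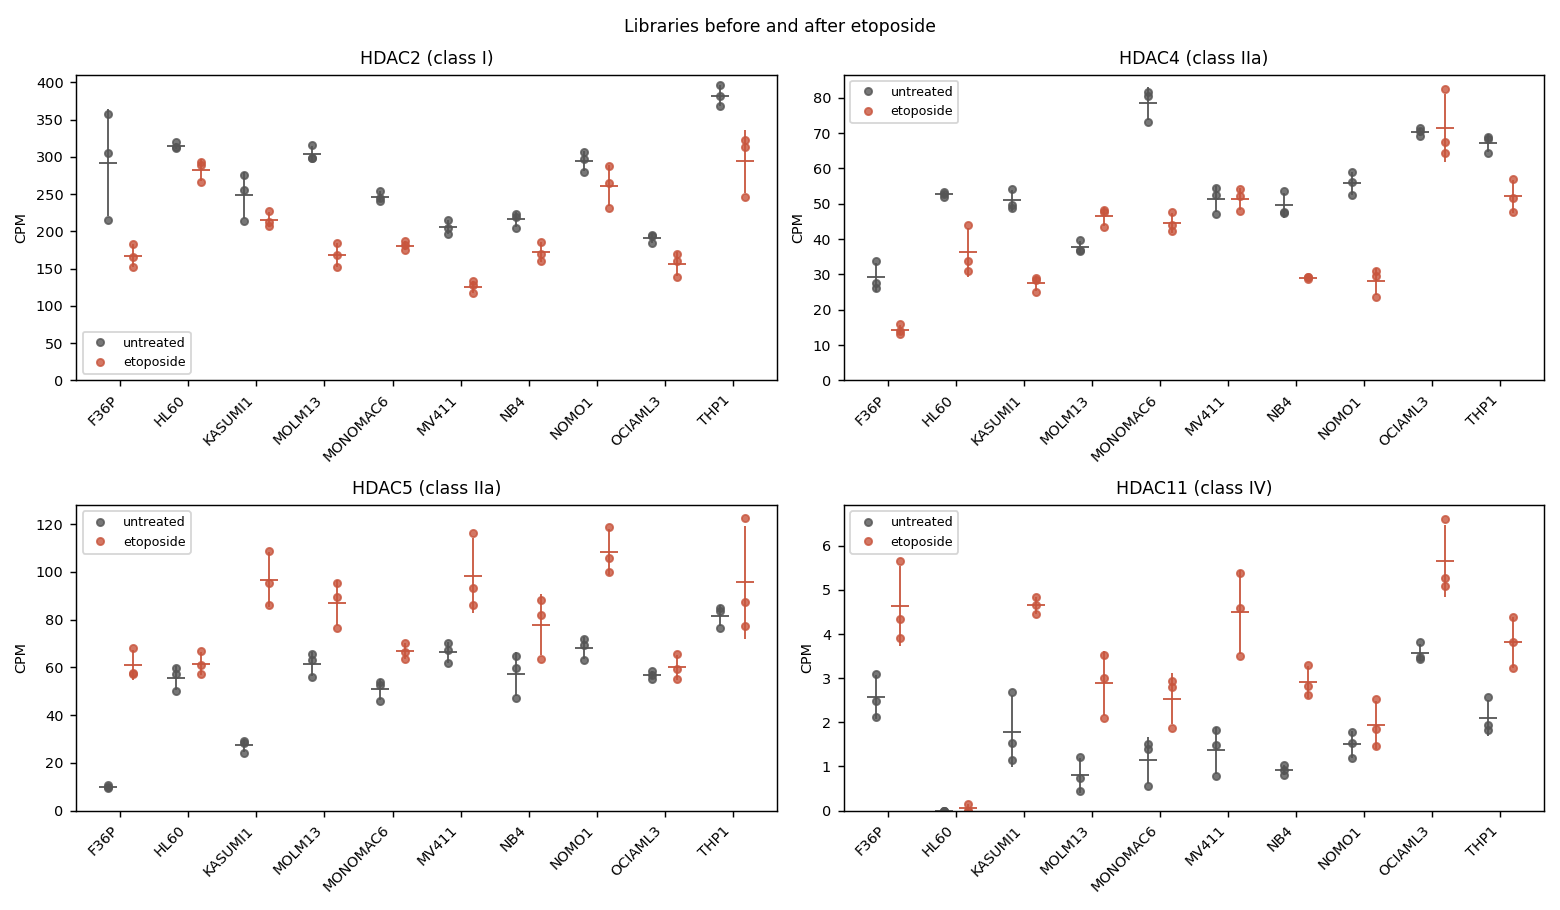
CPM (y axis, starting at 0) of HDAC2, HDAC4, HDAC5 and HDAC11 in each library of 10 lines (x axis), untreated in grey and treated with etoposide in red. Dots are libraries, short bars the mean and vertical lines the SD of 3. HDAC2 is lower and HDAC5 higher on average in 10 of 10 lines, with the widest gaps of HDAC5 in F36P and KASUMI1.

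Whether a member changed in common over the lines was read from the mean log2 fold change over 10 lines, with an exact two-sided sign-flip permutation test and adjustment over all 19974 genes in the fit. HDAC2, HDAC5 and HDAC11 passed, with 1 of them negative and 2 positive, while 12.9% of all genes passed as negative and 19.9% as positive. HDAC2 had a mean of −0.41 ± 0.248 (SD over 10 lines), HDAC5 of 0.78 ± 0.828 and HDAC11 of 1.39 ± 0.809. Each had the same sign in 10 of 10 lines, which gives the smallest p that the flips allow, 0.00195 (exact sign-flip permutation, adjusted p = 0.0146). The same sign in every line was found for 13.4% of all genes. The HDAC11 mean includes the fitted value of HL60, which is made of 3 reads against 0, and without HL60 it was 1.19. Without F36P the mean of HDAC5 was 0.57. HDAC4 (mean −0.48 ± 0.483, negative in 7 of 10 lines), HDAC8 (−0.18 ± 0.260) and HDAC1 (0.16 ± 0.229) had adjusted p values of 0.0643, 0.0686 and 0.104 in the exact permutation test. HDAC3 (−0.03), HDAC6 (−0.06), HDAC7 (−0.14) and HDAC9 (0.15) did not pass either, and the signs of HDAC3, HDAC6 and HDAC9 changed with the scaling or with F36P left out.

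The size of the response differed between lines for all 10 members by the line by treatment interaction in edgeR, a test that 74.5% of all genes passed. Set against the mean change of the other 9 lines, 6 contrasts were called at over 2-fold. HDAC5 rose more in F36P, by 2.09 ± 0.146 (SE, log2 difference; edgeR adjusted p = 1.63e-17), and in KASUMI1, by 1.22 ± 0.135 (adjusted p = 1.61e-10). HDAC9 differed by 1.63 ± 0.395 in F36P and by −1.10 ± 0.294 in NB4, both on few reads. HDAC7 fell more in F36P, by −1.03 ± 0.132, and HDAC11 rose less in NOMO1, by −1.15. This difference of HDAC11 includes HL60, with its 3 reads against 0, in the mean of the other lines. No SE is given for it, because the SE derived from the test was erratic for HDAC11. It ran from 0.0975 in KASUMI1 to 5.53 in MOLM13. With HL60 left out of it, 4 contrasts were called, since HDAC11 in NOMO1 was at −0.94 and HDAC9 in NB4 at −0.98, and over all genes and lines 6.26% of the contrasts were called. The shares of all genes called in these contrasts were 11.4% in F36P, 7.79% in KASUMI1, 5.19% in NB4 and 5.81% in NOMO1. No class I contrast was called.

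Class I and class II genes were set side by side as a description, with no test. They are few, and the members were chosen with earlier results of these data known. Of the 40 class I pairs 0 were called by edgeR, and at an adjusted p below 0.05 alone 3 rose and 11 fell. Of the 49 class II pairs 3 were induced and 2 repressed, and 14 rose and 17 fell by the adjusted p alone. The background for these counts is 11.1% induced, 3.96% repressed, 27.7% up and 24.4% down. The class I median was below 0 in 10 of 10 lines, from −0.63 in F36P to −0.001 in NB4, and when the counts were scaled by library size alone it was above 0 in 3 lines. The class II median was below 0 in 5 lines. It lay above that of class I in 6 of 10 lines, most in F36P, where it was 0.17 against −0.63, and below it in 4, most in NB4, where it was −0.70 against −0.001. The difference of class II from class I had a median of 0.14 over the lines with an SD of 0.432, so it was smaller than its spread. What set class II apart in more of the lines was the width, since its range of log2 fold changes was wider than that of class I in 8 of 10 lines, being 3.73 against 0.95 in F36P and 2.72 against 0.25 in KASUMI1. MOLM13 and MV411 were the exceptions. Here 5 class II genes were set against 4 of class I, which by itself makes a wider range more likely. HL60 was the exception, with 4 against 4 because HDAC9 was not tested, and its ranges were 0.69 in class II and 0.20 in class I. The median size of change regardless of sign was larger in class II in 7 of 10 lines, while over all genes it lay between 0.25 in HL60 and 0.58 in F36P.

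**Figure D4:**
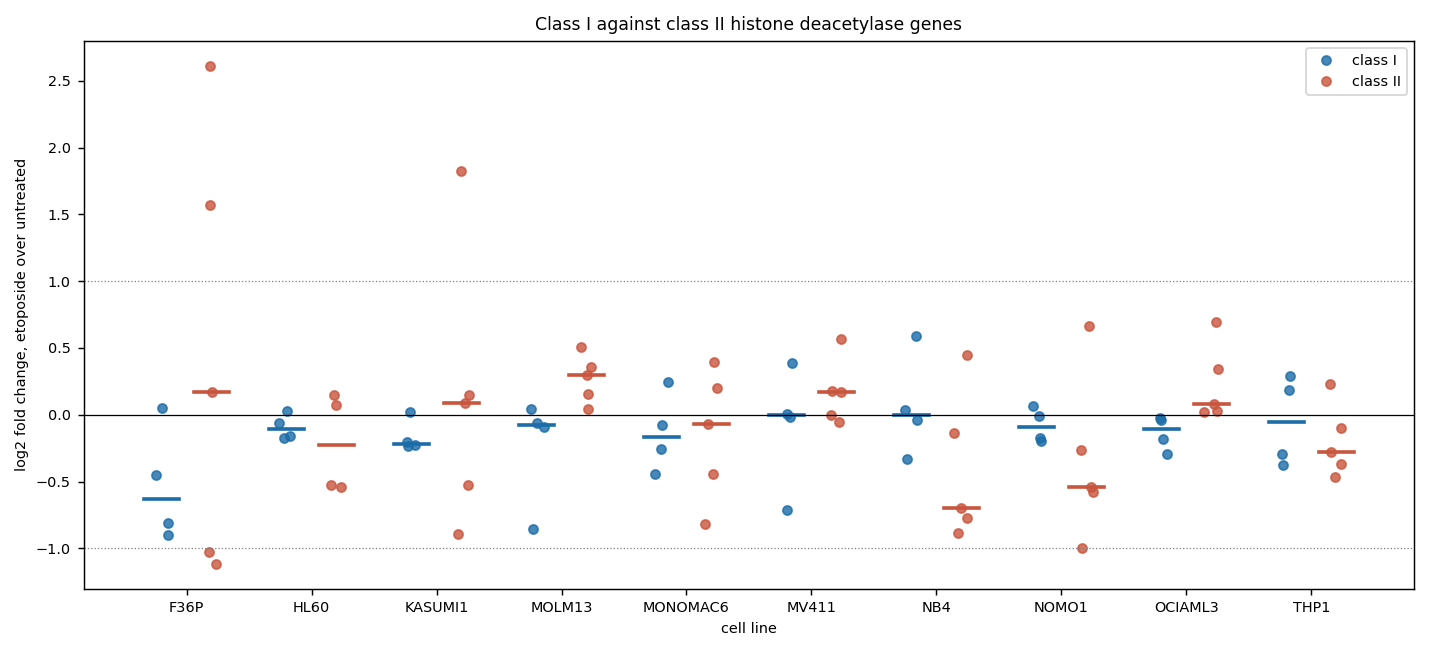
Log2 fold change (y axis) of each class I gene (blue) and class II gene (red) in 10 lines (x axis). Dots are genes, thick bars the class medians, and dotted lines mark 2-fold. The class II dots are the more widely spread ones in 8 of 10 lines and reach 2.61 in F36P, while no class I dot reaches a dotted line.

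In OCIAML2 none of the 10 members passed by edgeR, and 0 were called, as for 0.0% of all genes, of which only 0.0221% passed the adjusted p at all. The log2 fold changes of the members lay between −0.15 for HDAC8 and 0.22 for HDAC11. HDAC5 held 70.8, 69.7 and 70.5 CPM in the untreated and 64.4, 66.8 and 76.1 CPM in the treated libraries, and HDAC2 held 325, 326 and 334 CPM before and 335, 322 and 322 CPM after. The groups overlapped for both. CDKN1A had a log2 fold change of 0.73 in this line, lower than in any of the other 10.

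The partners of the deacetylases were counted in the same way, as a description. Of 330 pairs of a corepressor complex gene and a line, 1 was called induced and 8 repressed by edgeR, and 43 rose and 115 fell by the adjusted p alone. Over all gene-line pairs 11.1% were induced, 3.96% repressed, 27.7% up and 24.4% down. The median log2 fold change of the complex genes was −0.07, against 0.01 over all genes. The called falls included TBL1XR1, a subunit of the HDAC3 complex (−1.67 in F36P and −1.13 in KASUMI1), GATAD2A, a NuRD subunit (−1.55 in F36P and −1.23 in KASUMI1), and KDM1A, the demethylase of CoREST (−1.02 in F36P). KDM1A passed with a fall in 9 of 10 lines. The NuRD subunit MTA3 was induced in MV411, from 8.17 to 20.9 CPM on average, a log2 fold change of 1.35.

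Of 130 pairs with the opposing acetyltransferases, 4 were induced and 1 repressed, against 11.1% and 3.96% of all pairs, and 36 rose and 42 fell by edgeR's adjusted p alone, against 27.7% and 24.4%. All 4 inductions were of KAT2B, also known as PCAF, with log2 fold changes of 1.64 in KASUMI1, 1.26 in NB4, 1.09 in MONOMAC6 and 1.01 in NOMO1. The repression was of NCOA1, a coactivator with acetyltransferase activity, in F36P (−1.16). Of 90 pairs with partners of class IIa enzymes, 2 were induced and 7 repressed, and 12 rose and 43 fell, where the same 11.1%, 3.96%, 27.7% and 24.4% apply. YWHAE, a 14-3-3 protein, fell over 2-fold in F36P (−1.27), NB4 (−1.25) and KASUMI1 (−1.10), and MEF2D in MONOMAC6 (−1.32), NOMO1 (−1.29) and NB4 (−1.12). MEF2C went opposite ways, down in F36P (−1.57) and up in NB4 (2.001), where its mean level rose from 2.76 to 11.1 CPM. MEF2A was induced in NOMO1 (1.18).

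Of the topoisomerase II genes that etoposide acts on, TOP2A was induced in KASUMI1 (1.12) and repressed in MOLM13 (−1.03). TOP2B was not called in any of 10 lines, with log2 fold changes of −0.92 to 0.05. By the adjusted p alone TOP2B fell in F36P, HL60, MONOMAC6, MV411, NB4, NOMO1 and THP1. Of the 20 pairs of these genes and a line, 1 rose and 11 fell by edgeR's adjusted p alone. Over all gene-line pairs 11.1% were induced, 3.96% repressed, 27.7% up and 24.4% down. MDM2, the p53 regulator induced by p53, was called in MOLM13 (1.84), MV411 (1.11) and OCIAML3 (2.59). It rose past the adjusted p in MONOMAC6 (0.61) and NOMO1 (0.65) and fell past it in NB4 (−0.33). In F36P (−0.22), HL60 (0.14), KASUMI1 (−0.02) and THP1 (0.03) it did not pass. In MOLM13, MV411 and OCIAML3 HDAC5 was not called, and HDAC11 was called in MOLM13 and MV411.

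The genes most like each member over the 11 untreated lines were named by Pearson's r of the mean log2(CPM + 1), among 13669 genes with at least 1 CPM on average. With 11 points and that many genes, high values arise readily, and they are given as a description. For HDAC5 they were CLTCL1 (r = 0.956), IL17RA (0.950) and the myeloid transcription factor CEBPA (0.946), and for HDAC9 IGFBP7 (0.953), MS4A14 (0.946) and METTL7B (0.942). HDAC7 was followed by ZNF664 (0.931), SLC25A43 (0.930) and STOML2 (0.926), HDAC4 by RAB3GAP1 (0.923), CLK2 (0.911) and SIMC1 (0.896), and HDAC6 by RNF121 (0.913), NAA50 (0.901) and TSPYL2 (0.894). The class I genes, which vary less, had values of 0.848 to 0.899.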

How the data were processed

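RNA-seq counts of 66 libraries were analysed. Per the labels and the study's methods, total RNA was made into TruSeq stranded mRNA libraries and sequenced single-end, reads were checked with FastQC 0.11.5 and aligned by STAR 2.5.3a against GRCh38.p7 using the gencode 25 annotation, and edgeR 3.20.1 was used for differential expression. The deposited values are raw counts of reads per gene from the authors, with 1 column per library and no normalization. Of 716 genes that lie inside an exon of the opposite strand in gencode release 44, 470 held reads, as counts specific to a strand allow. The reads were counted with gencode 25, whose exons may differ, so this check does not settle the strand. Whether genes antisense to a member (such as G6PC3 beside HDAC5) share its reads was not tested. Symbols and lengths were taken from gencode release 44 for 56948 of 57992 identifiers, once 45 readless pseudoautosomal duplicates on chromosome Y had been dropped. Upstream windows came from the RefSeq table, in which 9 of the 10 members matched and HDAC5 did not.

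Members and gene lists were chosen with earlier results of these data known. An erythroid marker of the lists is not reported here. Each line was tested in R 4.3.3 with edgeR 4.0.16 (filterByExpr with a minimum count of 10 and total of 15, TMM, quasi-likelihood test, Benjamini-Hochberg over all genes). Genes were called at an adjusted p below 0.05 and over 2-fold. CPM was scaled within a line, over the 33 untreated libraries for basal levels, or over 60 libraries where stated. The interaction and the mean over lines came from 1 fit of the 60 libraries of 10 lines, and the mean was tested by exact sign flips. All replicate pairs differed by more than sampling noise (lowest chi-square per degree of freedom 2.05). The labels call the replicates biological without saying how the cultures were kept apart, so p-values measure the spread between these samples, which may be technical.

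The named genes were the 10 members, up to 4 genes of each related list called in the most lines (ties by the larger mean change), TOP2A, TOP2B, CDKN1A, MDM2, and for each member the 3 genes most like it in untreated cells. DESeq2 1.42.0, the edgeR exact test, other scalings and filters, a replicate block and leaving out libraries or lines were alternatives. The scripts were tested on simulated data. The numbers of replicates were taken to pair libraries only in NB4. There, libraries of the same number deviated together from the means of their groups, with correlations of 0.265, 0.22 and 0.152. The 3 correlations were also all positive, at 0.002 to 0.231, in HL60, MOLM13, MONOMAC6, MV411 and OCIAML2. Pairing in those lines is thus not excluded. The main fits had no replicate block in any line, NB4 included. Python 3.11.15 with numpy 2.4.6, pandas 2.3.3, scipy 1.17.1 and matplotlib 3.10.9 was used otherwise.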

Additional observations from a re-analysis of the deposited data

Results flagged for a closer look

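The change after etoposide differed between the 10 lines for every member, by the line by treatment interaction of edgeR's quasi-likelihood test, which 74.5% of all genes passed. The adjusted p was 3.65e-18 for HDAC5 and 5.58e-13 for HDAC4. It was 6.61e-10 for HDAC7, 4.27e-09 for HDAC9, 9.87e-09 for HDAC1 and 1.42e-08 for HDAC6. For HDAC8 it was 4.56e-07, for HDAC3 9.90e-07, for HDAC2 2.17e-05 and for HDAC11 0.00738. With HL60, where HDAC11 had 3 reads in all, left out of the interaction, the adjusted p of HDAC11 was 0.00632. The log2 fold changes over lines in the same fit ran from 0.07 in OCIAML3 to 2.66 in F36P for HDAC5, from −1.02 in NOMO1 to 0.36 in MOLM13 for HDAC4, and from −0.84 in NB4 to 1.62 in F36P for HDAC9. HDAC2 ran from −0.79 in MOLM13 to −0.12 in HL60, without a change of sign. The dose differed between the lines and cannot be told apart from the line.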

How the results depend on the processing

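The 8 induced pairs became 2 with a minimum mean of 5 CPM, which leaves out HDAC11 in every line and HDAC9 in F36P. The 2 repressed pairs became 0 with that filter, 0 with library size alone and 0 with F36P set aside. They ranged from 1 to 4 when 1 library of each line, either untreated or treated, was left out. HDAC4 in F36P was lost without its first untreated or second treated library, HDAC11 in MONOMAC6 without its first untreated one, and HDAC9 in F36P without its second untreated or first treated one. HDAC4 in NOMO1, at −0.996, was called by DESeq2 (−1.03). The fit of 60 libraries also gave 2 repressed pairs, but not the same ones. There HDAC4 was lost in F36P (−0.98) and called in NOMO1 (−1.02). With library size alone the split over the 10 lines was 9 induced and 0 repressed pairs, against 8 and 2, and 34 up and 20 down by edgeR's adjusted p, against 25 and 28. That scaling moved the median log2 fold change of all genes to 0.34 in F36P, 0.21 in NB4, 0.20 in KASUMI1, 0.14 in MV411 and 0.13 in MONOMAC6. The mean of HDAC3 reversed to 0.013 without F36P, 0.003 with a minimum of 5 CPM and 0.053 with library size alone, that of HDAC9 to −0.012 without F36P, and that of HDAC6 to 0.025 with library size alone. None of these means passed its test. Leaving out 1 line or 1 replicate number gave −0.069 to 0.013 for HDAC3 and −0.012 to 0.261 for HDAC9. HDAC8 passed with OCIAML2 added or without the first replicates, and HDAC4 without MOLM13 (−0.575). With HL60, or HL60 and F36P, left out of the mean of the other lines, 15 and 16 basal contrasts were called, against 19, the basal difference of HDAC9 in OCIAML3 reversed to −0.06 with both left out, and with HL60 left out 4 differences in response, against 6. The cause of these shifts was not tested. HDAC2, HDAC5 and HDAC11 passed the exact sign-flip test under every alternative run, except that HDAC11 could not be fitted with a minimum of 5 CPM.

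The replicate block changed no adjusted p call of a member in NB4, where the numbers were taken to pair the libraries. Over the 10 lines 8 pairs were induced and 3 repressed under the block. In lines where the numbers were not taken as pairs, HDAC3 in KASUMI1, HDAC6 in NOMO1 and HDAC2 in OCIAML3 no longer passed edgeR's adjusted p (0.0609, 0.061 and 0.0601). HDAC4 in NOMO1 was called (−1.003). Same-numbered libraries correlated between −0.327 and 0.334. HDAC9 and HDAC11 rest on few reads in several lines, and at a count of 0 their level is bounded only by the depth.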
